A study of Mus musculus with 3 samples.

Results

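Genes of the p53 pathway and of apoptosis were examined in RNA-Seq count tables of the rostrum of mouse embryos at embryonic day 9 (E9, 18 to 22 somites). The set was a list of 34 gene symbols of known role, drawn up with earlier results of these data known, and all 34 were among the 24062 genes in the tables. The *tuft* library came from embryos of the tuft line, which carries a spontaneous nonsense mutation in *Tet1*, an enzyme that oxidizes methylated cytosine, and according to the study's description these embryos were homozygous for the mutation and had neural tube closure defects. The wild-type (WT) library came from the 3H1 Balb background strain on which the mutation arose. Each library held RNA pooled from 3 embryos, so the spread between embryos was not measured.

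There was 1 library per genotype in the tables, assigned by the genotype in the name of its table, although the labels list 1 WT and 2 *tuft* samples. No test of genotype was therefore possible and no p-value is given. Each gene is described by its count, by its level in normalized CPM (nCPM, counts scaled to a common library size) and by the fold change of *tuft* over WT with a 95% exact interval, which covers counting error only. A gene was called higher or lower where the whole interval lay beyond 2-fold. All 34 genes had at least 10 counts over both libraries, the minimum that 13979 genes of the tables passed (called genes tested below, with no significance test implied). Because the samples were bulk tissue, fewer cells of a type and less RNA per cell cannot be told apart in any value below.

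The *tuft* library held 6433067 counts on genes and the WT library 14251942, a 2.22-fold difference in depth. Of 10121 genes with at least 100 counts in WT, 542 (5.36%) had 0 counts in *tuft*. The mutated gene, *Tet1*, had 32 counts in *tuft* and 435 in WT, a fold change of 0.214 (0.145 to 0.307). Markers of other cell types also differed between the libraries. The summed level of 9 primitive blood genes was 40729 nCPM in *tuft* and 2799 nCPM in WT, with 3 called higher and 4 lower. Most of the *tuft* sum came from the globin genes *Hba-x* (21165 nCPM) and *Hbb-y* (18521 nCPM), while the globin gene *Hbb-bh1* had a fold change of 1.08. The erythroid regulators *Gata1* (125 WT counts) and *Klf1* (79 WT counts) were at 0 in *tuft*. The 13 yolk sac endoderm genes summed to 336 nCPM in *tuft* and 2086 nCPM in WT, with 11 of 13 called lower and *Apoa4*, *Fga* and *Fgb* at 0 in *tuft*. The 6 endothelial genes summed to 112 and 250 nCPM, with 1 called higher and 3 lower and *Pecam1* at 0 in *tuft* and 443 counts in WT. The rostrum markers were detected in both libraries except *Hesx1* and *Foxd3*, at 0 in *tuft*, and the eye field gene *Rax* had 2 counts in *tuft* and 389 in WT. The 11 forebrain genes summed to 1248 and 716 nCPM, with 4 called higher and 2 lower. The 9 genes of head mesenchyme and neural crest summed to 680 and 344 nCPM, with 2 called higher and 1 lower. Of the 680 nCPM in *tuft*, *Sox10* made up 228. The 7 surface ectoderm genes summed to 898 and 536 nCPM, with 1 called higher and 1 lower. The 10 trunk genes summed to 0.535 and 3.12 nCPM. The 7 macrophage genes were all at 0 in *tuft* and summed to 2.203 nCPM in WT. The part of these differences in the results below was not tested.

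The transcription factor p53 is held at a low level by MDM2, which marks it for degradation, and is restrained by the related MDM4. When released, p53 activates genes that arrest the cell cycle and genes that promote cell death. In the mitochondrial route to apoptosis, BH3-only proteins engage the survival proteins of the BCL2 family and the pore formers BAX and BAK, and open pores release cytochrome c, which assembles with APAF1 and caspase-9. A second route starts at death receptors, which recruit FADD and caspase-8. In the early embryo, loss of *Mdm2* or *Mdm4* is lethal through p53, and both excess p53 activity and lack of *Apaf1* or *Casp9* are known in mice to disturb closure of the cranial neural tube.

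Of the 34 genes, 10 (29.4%) were called higher in *tuft*, 8 (23.5%) were called lower and 16 were not called. Over all 13979 genes, 47.2% were called in either direction, 17.4% higher and 29.8% lower, so that 63.2% of the calls were lower. With library totals in place of TMM scaling, 75.3% of all calls were lower, the median log2 value over all genes fell to −0.85 from −0.46, and 8 of the 34 genes were called higher and 10 lower. The median log2 fold change over the 34 genes was −0.03. The fold change was above 1 for 17 of the 34. The 10 higher genes were 6 p53 target genes, 2 BH3-only genes, *Mcl1* and *Diablo*. The 8 lower genes were *Bok*, *Casp8*, *Apaf1*, *Fadd*, *Cycs*, *Aifm1*, *Endog* and *Xiap*.

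**Figure D1:**
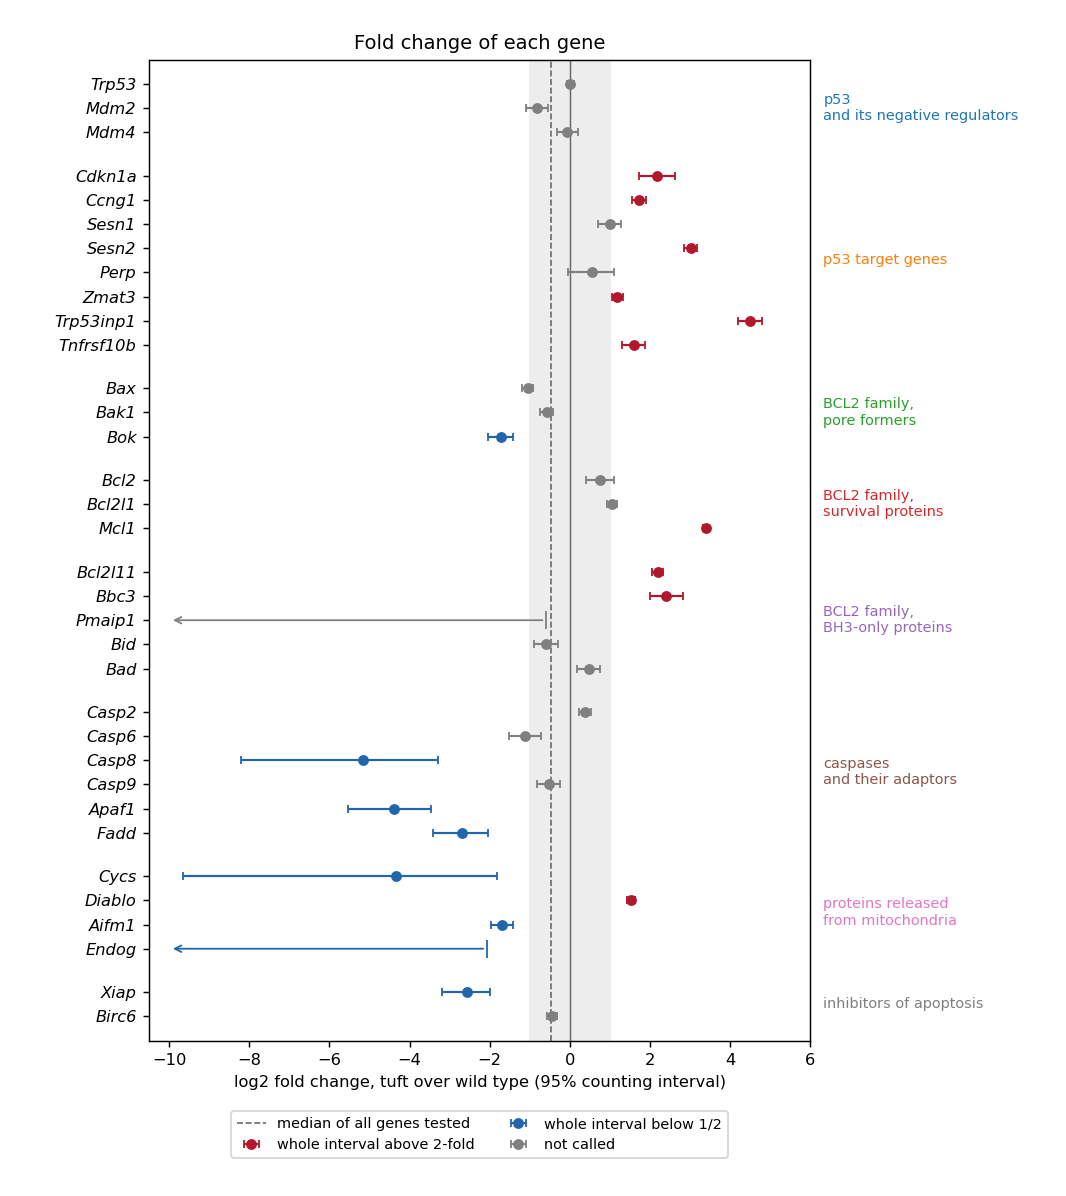
Log2 fold change of *tuft* over WT for the 34 genes by role, with 95% counting intervals in red (called higher), blue (called lower) or grey (not called), arrows from the upper bound for the genes at 0 counts in *tuft*, a grey band within 2-fold and a dashed line at the median of all genes tested (−0.46). All 8 genes listed as p53 target genes sit to the right of 0, and the pore formers and the listed inhibitors of apoptosis (*Xiap* and *Birc6*) to the left. As examples of known p53 targets under other roles, *Mdm2*, *Bax* and *Pmaip1* sit to the left and *Bbc3* to the right. These are not a full list of such targets among the 34.

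*Trp53*, the gene of p53 (GRCm38 chr11:69580348-69591873), had a counting interval that spanned 1. It had 1609 counts in *tuft* and 4644 in WT, which came to 287 and 284 nCPM, and a fold change of 1.01 (0.953 to 1.07). This value rests on the scaling, since its log2 fold change was 0.01 with TMM, 0.06 with size factors and −0.38 with library totals. *Mdm2* (chr10:117688875-117710758), both a brake on p53 and one of its targets, was lower by less than the limit for a call. Its level was 23.7 nCPM in *tuft* from 133 counts and 41.6 nCPM in WT from 679 counts, a fold change of 0.570 (0.470 to 0.688). *Mdm4* had 28.7 nCPM in *tuft* and 30.0 nCPM in WT, a fold change of 0.957 (0.796 to 1.15) whose interval spanned 1. One pseudogene is named after *Trp53* and 1 after *Mdm4*. Reads without a unique alignment stood in a row of their own in the tables and on no gene.

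Because both genes are read from the same library, a ratio of their counts needs no scaling between libraries. There were 0.0827 *Mdm2* counts for each *Trp53* count in *tuft* and 0.146 in WT, a *tuft* to WT ratio of 0.565 (0.462 to 0.688). For *Mdm4* the values were 0.1001 and 0.106, a ratio of 0.948 (0.782 to 1.15). *Cdkn1a* stood at 0.0690 counts per *Trp53* count in *tuft* and at 0.0155 in WT, a ratio of 4.45 (3.26 to 6.10). The WT library thus had more *Mdm2* and less *Cdkn1a* per *Trp53* transcript counted, and a like amount of *Mdm4*.

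All 8 genes listed under the role of p53 target had a fold change above 1, with a median log2 value of 1.66. Of the 8, 6 (75%) were called higher, against 17.4% of all genes tested. Examples of known targets under other roles, which are not a full list, lay on both sides of 1. *Bbc3* had a fold change of 5.32, *Mdm2* 0.570 and *Bax* 0.482, and *Pmaip1* had 0 counts in *tuft* and 18 in WT. Of 31 further p53 target genes, 9 (29.0%) were called higher and 10 (32.3%) lower, against 17.4% and 29.8% of all genes tested. Fewer of the 8 were called by stricter rules. NOISeq-sim on CPM (a caller that draws its noise from each library's own counts) called 3 of 8, without *Cdkn1a*, *Zmat3* and *Tnfrsf10b*. By that rule 8.83% of all genes with a count were called higher. A 4-fold limit left 2 of 8, and 6.94% of all genes tested were called higher by it. *Trp53inp1* (chr4:11156441-11174379), whose product acts with p53 and in autophagy, differed most. It had 845 counts in *tuft* and 109 in the deeper WT library, or 151 and 6.67 nCPM, a fold change of 22.6 (18.5 to 27.8). *Sesn2* (chr4:132492804-132510456), a stress-induced sestrin that restrains mTORC1, had 1168 counts in *tuft* and 421 in WT. Its levels were 208 and 25.8 nCPM, a fold change of 8.08 (7.22 to 9.05). For both genes the *tuft* count was the larger one before any scaling. Of genes with a like WT count (within 1.5 times), 0.252% of 1590 had as many counts in *tuft* as *Trp53inp1* or more. For *Sesn2* the share was 1.59% of 2699.

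*Cdkn1a* (chr17:29090979-29100722) encodes p21, the inhibitor of cyclin-dependent kinases through which p53 arrests the cell cycle. It had 111 counts in *tuft* and 72 in WT, levels of 19.8 and 4.41 nCPM, and a fold change of 4.49 (3.31 to 6.13). *Ccng1* (chr11:40748552-40755309), the gene of cyclin G1, had 582 and 514 counts, levels of 104 and 31.5 nCPM, and a fold change of 3.30 (2.92 to 3.72). *Tnfrsf10b* (chr14:69767472-69784411), a death receptor for TRAIL, had 216 and 208 counts, levels of 38.5 and 12.7 nCPM, and a fold change of 3.02 (2.49 to 3.68). These 3 genes had more raw counts in *tuft* than in WT despite the shallower library. Such counts were shared by other genes. Of genes with a like WT count, 13.6% of 1405 had as many counts in *tuft* as *Cdkn1a* or more, 9.99% of 2793 for *Ccng1*, and 17.2% of 2040 for *Tnfrsf10b*.

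*Zmat3* (chr3:32334792-32365665), which encodes an RNA-binding zinc finger protein, was the remaining gene called higher. It had 713 counts in *tuft* and 910 in WT, levels of 127 and 55.7 nCPM, and a fold change of 2.28 (2.07 to 2.52). *Sesn1*, the other sestrin gene, had 174 and 254 counts and levels of 31.0 and 15.5 nCPM. Its fold change of 1.99 (1.64 to 2.43) spanned the 2-fold limit. *Perp*, which encodes a membrane protein of desmosomes, had 40 and 80 counts and a fold change of 1.46 (0.970 to 2.15), whose interval held 1. With library totals in place of TMM scaling, *Zmat3* and *Tnfrsf10b* were no longer called, and the target genes remained above 1.

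**Figure D2:**
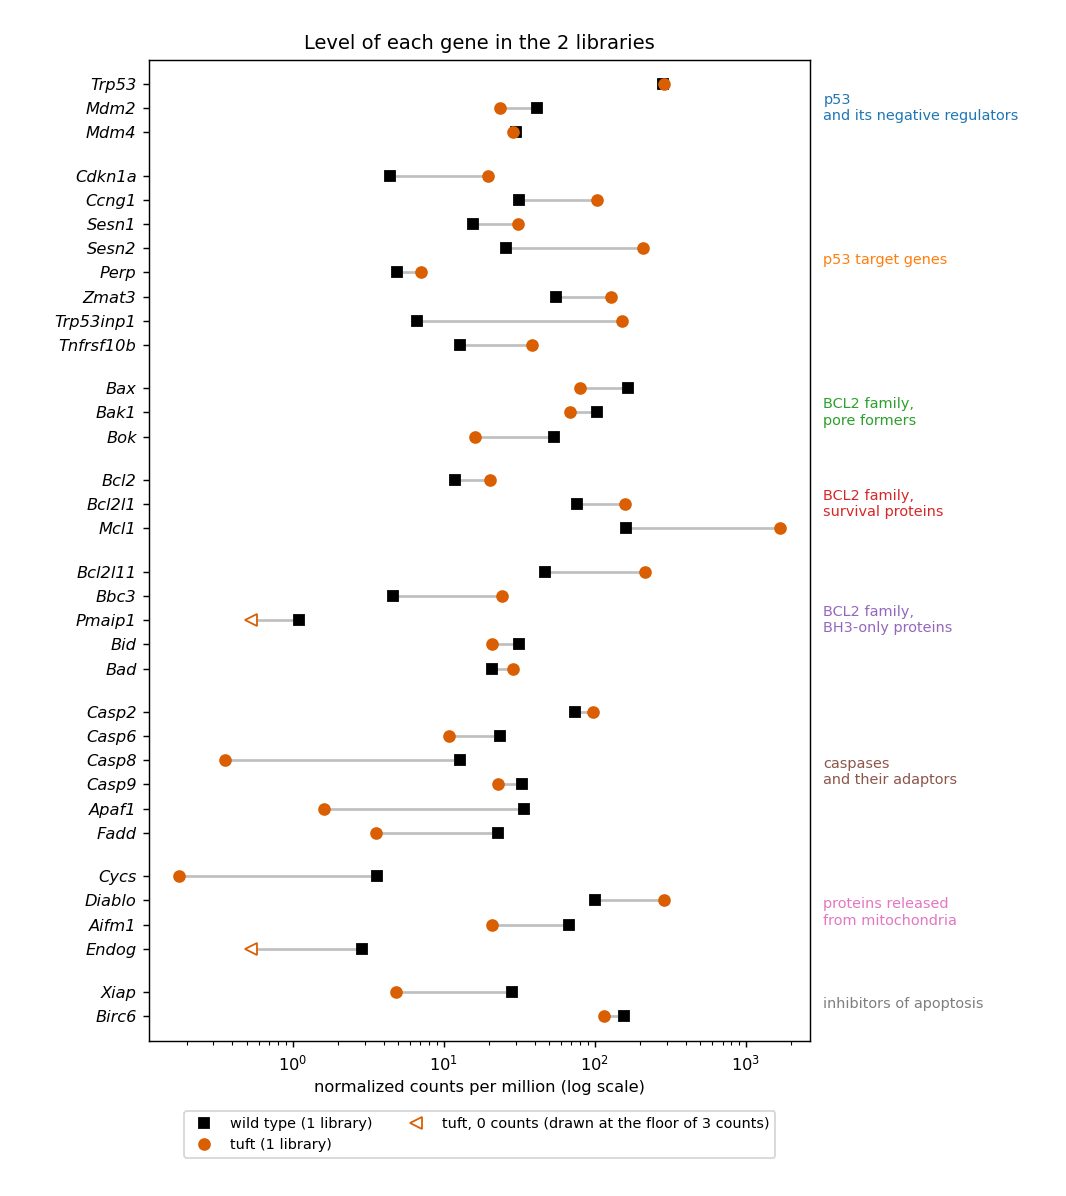
Level of each of the 34 genes in the WT library (squares) and the *tuft* library (circles), in normalized CPM on a log axis, grouped by role, with open triangles at the 3-count floor for genes at 0 counts in *tuft*. *Mcl1* stands highest in *tuft* at 1682 nCPM, while the points of *Trp53* overlap at 287 and 284 nCPM.

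The promoters of these genes were searched for the p53 response element, a pair of abutting repeats. A match kept the central C and G of each repeat and had at most 3 other mismatches, on either strand. RefSeq promoter sequences of GRCm38.p6, from 250 bases before to 50 bases after the listed start, were held for 29 of the 34 genes and not for *Perp*, *Zmat3*, *Trp53inp1*, *Tnfrsf10b* and *Pmaip1*. A match was found in 5 of the 29 (17.2%), against 441 of 27025 genes with a promoter of that length (1.63%) and 191 of 10387 genes tested (1.84%). Of the 5, *Cdkn1a*, *Ccng1* and *Sesn1* were listed as p53 targets, *Bbc3* is a known target listed by its BH3-only role, and *Trp53* encodes p53 itself. A list that holds known p53 targets is no independent sample of promoters, so the share is a description. The stretches upstream of the start are shown to place these sequence matches beside the counts of their genes. Binding of p53 was not measured. Capitals mark the match, and each sequence runs in the direction of the gene.
Cdkn1a, chr17:29090888-29090978, plus strand: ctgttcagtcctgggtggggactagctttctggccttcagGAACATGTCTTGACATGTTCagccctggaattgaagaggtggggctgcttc
Ccng1, chr11:40755422-40755521, minus strand: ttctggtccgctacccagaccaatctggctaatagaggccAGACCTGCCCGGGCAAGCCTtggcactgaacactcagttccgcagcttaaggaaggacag
Bbc3, chr7:16309446-16309545, plus strand: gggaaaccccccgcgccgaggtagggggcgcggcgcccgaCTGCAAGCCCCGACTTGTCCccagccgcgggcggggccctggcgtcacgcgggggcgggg
Sesn1, chr10:41887226-41887325, plus strand: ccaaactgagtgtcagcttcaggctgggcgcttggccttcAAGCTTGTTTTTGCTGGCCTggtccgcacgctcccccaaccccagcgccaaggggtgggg
Trp53, chr11:69580244-69580343, plus strand: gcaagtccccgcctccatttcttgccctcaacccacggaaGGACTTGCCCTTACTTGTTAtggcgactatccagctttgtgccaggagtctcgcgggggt

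The matches in *Cdkn1a* and *Ccng1* had 1 mismatch each and lay 51 and 195 bases before the listed start, which for *Cdkn1a* is the upstream of 2 listed starts. Those in *Bbc3*, *Sesn1* and *Trp53* had 3 mismatches each and lay 97, 173 and 75 bases before the listed start. For *Bbc3* this is the most upstream of 3 listed starts, and for *Sesn1* the downstream of 2. The promoters at the other listed starts of *Cdkn1a*, *Bbc3* and *Sesn1* held no match. By call, a match was present in 3 of the 7 higher genes with a promoter sequence, in 0 of the 8 lower genes and in 2 of the 14 not called. Over all genes tested with a promoter, the share was 1.84% of those called higher and 1.70% of those called lower. The 3 higher genes with a match (*Cdkn1a*, *Ccng1* and *Bbc3*) are known targets, so the split by call is a description of the list. *Trp53*, with a match, had a fold change of 1.01, and *Sesn2*, with a fold change of 8.08, had none in this window. The median number of CpG dinucleotides in the promoters was 22 for the 29 genes and 22 for all genes tested with a promoter.

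**Figure D3:**
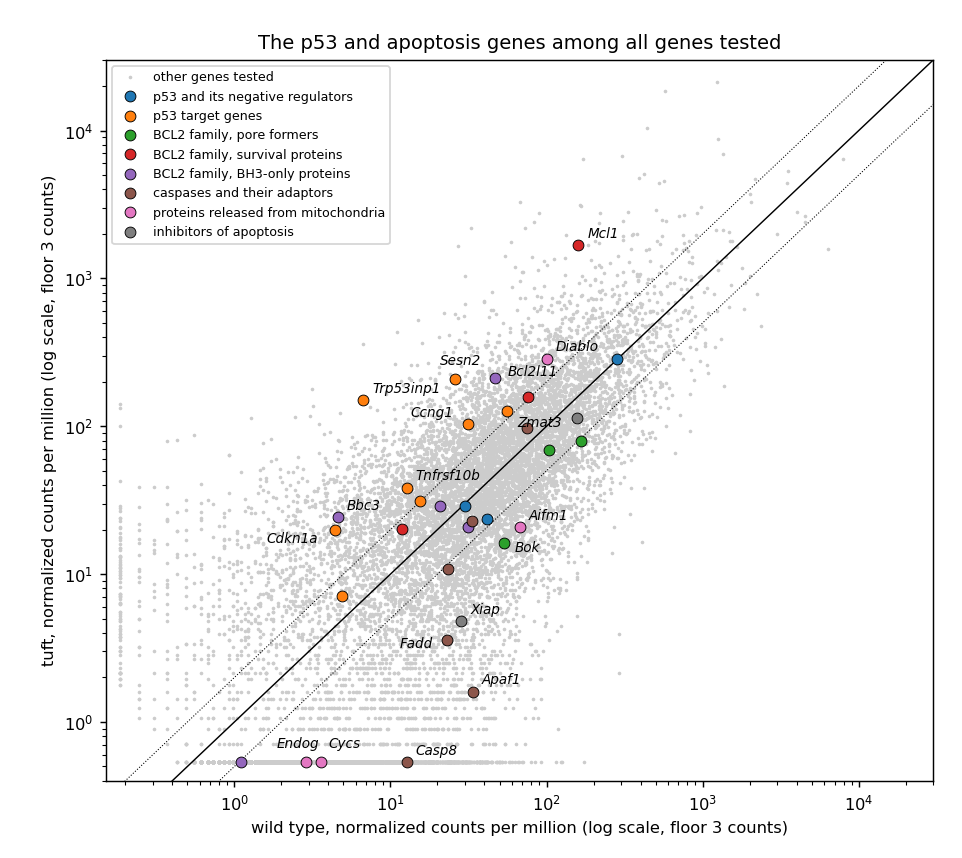
Normalized CPM of each gene tested in the WT library (horizontal) and the *tuft* library (vertical) on log axes, with the 34 genes coloured by role, values under 3 counts drawn at that floor, a solid line at equal levels and dotted lines at 2-fold. *Mcl1*, *Trp53inp1* and *Sesn2* lie above the dotted lines and *Apaf1*, *Casp8* and *Xiap* below them, within a cloud of other genes that also spreads to both sides.

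Among the BCL2 family, the 3 survival genes were higher in *tuft* and the 3 pore formers lower, although only *Mcl1* and *Bok* passed the limit for a call. *Mcl1* (chr3:95656944-95663179), a short-lived survival protein needed for early development, had 9439 counts in *tuft* and 2608 in WT. Its level was 1682 nCPM in *tuft* and 160 nCPM in WT, a fold change of 10.5 (10.1 to 11.01). It alone made up 43.1% of the 21894 counts of the 34 genes in *tuft* and 9.14% of their 28541 counts in WT. *Bcl2l1*, the gene of BCL-X, had 892 and 1250 counts, levels of 159 and 76.5 nCPM, and a fold change of 2.08 (1.90 to 2.27) whose interval reached below 2. *Bcl2*, the founding member of the family, had 113 and 195 counts and a fold change of 1.69 (1.33 to 2.14). *Bcl2l1* overlaps *Cox4i2*, which had 28 counts in each library.

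*Bax* (chr7:45461695-45466903), a pore former and a p53 target in many tissues, had 449 counts in *tuft* and 2714 in WT. Its level was 80.0 nCPM in *tuft* and 166 nCPM in WT, a fold change of 0.482 (0.435 to 0.533) that spanned the 2-fold limit. *Bak1*, the gene of the second main pore former, had 69.0 and 103 nCPM and a fold change of 0.669 (0.597 to 0.747). *Bok* (chr1:93685575-93695770), a related gene, had 91 counts in *tuft* and 873 in WT, levels of 16.2 and 53.4 nCPM, and a fold change of 0.304 (0.242 to 0.377). It was called lower. *Bax* thus lay on the other side of 1 from the 8 p53 target genes.

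The 3 pore formers together had 927 counts against 10444 of the 3 survival genes in *tuft*, a ratio of 0.0888. In WT they had 5272 against 4053, a ratio of 1.30. The WT ratio was 14.7 times the *tuft* ratio, and the ratio of *tuft* to WT was 0.0682 (0.0630 to 0.0739). Since *Mcl1* dominated the sum in *tuft*, 3 more ratios were formed after its count was seen. Without *Mcl1* the values were 0.922 in *tuft* and 3.65 in WT, a ratio of 0.253 (0.227 to 0.282). *Bax* to *Bcl2l1* was 0.503 in *tuft* and 2.17 in WT, a ratio of 0.232 (0.203 to 0.265), and *Bax* to *Bcl2* was 3.97 and 13.9, a ratio of 0.286 (0.220 to 0.371). Pore former transcripts were thus fewer per survival gene transcript in *tuft* in each of these 4 forms.

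**Figure D4:**
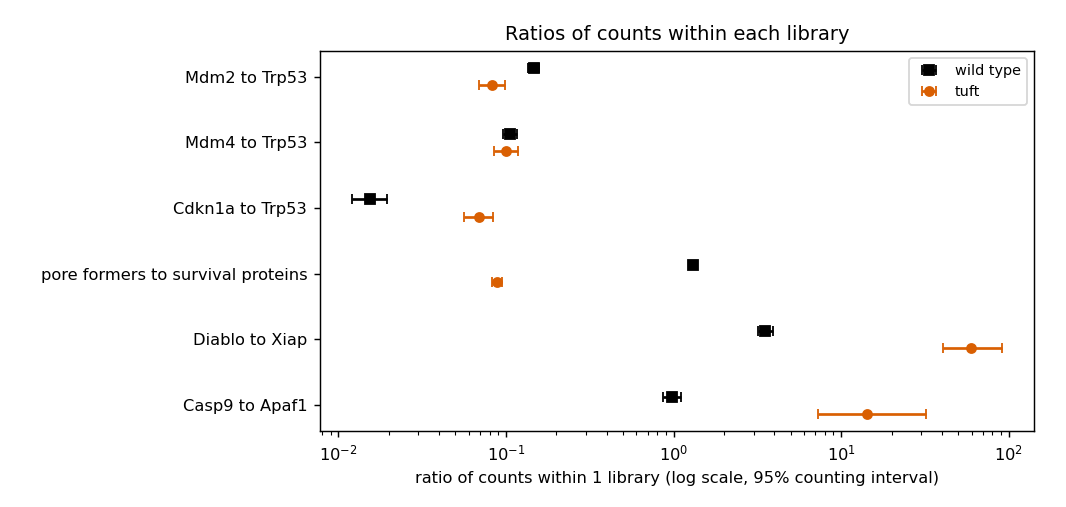
Ratio of the counts of 2 genes or gene sums within the WT library (squares) and within the *tuft* library (circles), on a log axis with 95% counting intervals. The libraries overlap for *Mdm4* to *Trp53* (0.1001 in *tuft*, 0.106 in WT) and lie furthest apart for *Diablo* to *Xiap*, pore formers to survival proteins and *Casp9* to *Apaf1*.

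Of the 5 BH3-only genes, 2 (40%) were called higher, against 17.4% of all genes tested, and 3 were not called. *Bcl2l11*, the gene of BIM, had 1196 counts in *tuft* and 763 in WT, levels of 213 and 46.7 nCPM, and a fold change of 4.56 (4.16 to 5.005). *Bbc3* (chr7:16308398-16318334), the gene of PUMA and a direct p53 target, had 137 and 75 counts, levels of 24.4 and 4.59 nCPM, and a fold change of 5.32 (3.99 to 7.15). *Pmaip1*, the gene of NOXA and another p53 target, went the other way, with 0 counts in *tuft* and 18 in WT. With 3 counts as the limit that a count of 0 allows in *tuft*, it was at least 2.06-fold lower, but its interval with the counting error of both libraries reached 0.662 and it was not called. Of 1304 genes with a like WT count, 70.4% were also at 0 in *tuft*.

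*Bid*, the gene through which caspase-8 engages the mitochondrial route, had 20.9 and 31.3 nCPM and a fold change of 0.667 (0.541 to 0.817). *Bad*, which is regulated by survival kinases, had 28.7 and 20.7 nCPM and a fold change of 1.38 (1.14 to 1.67). *Bad* overlaps *Gpr137*, which had 260 counts in *tuft* and 230 in WT. Whether the counting used strand is not given in the sources used here. Of the other genes, *Mdm4*, *Zmat3*, *Bak1*, *Bcl2*, *Bcl2l11*, *Bid*, *Casp6*, *Casp9*, *Apaf1*, *Diablo* and *Endog* also overlap at least 1 other gene, which had 4 and 167 counts for *Apaf1* (*Ikbip*) and 4 and 32 for *Zmat3*.

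Among the caspases and their adaptors, 3 of the 6 genes (50%) were called lower, against 29.8% of all genes tested. None was called higher, against 17.4% of all genes tested, and the median log2 value was −1.90. *Apaf1* (chr10:90989311-91082743), the scaffold that activates caspase-9, had 9 counts in *tuft* and 552 in WT. Its level was 1.60 nCPM in *tuft* and 33.8 nCPM in WT, a fold change of 0.0475 (0.0216 to 0.0908). *Casp8* (chr1:58795233-58847503), the initiator caspase of the death receptors, had 2 counts in *tuft* and 208 in WT, a fold change of 0.0280 (0.00337 to 0.102). *Fadd* (chr7:144578323-144582441), its adaptor at the receptor, had 20 and 376 counts, levels of 3.56 and 23.0 nCPM, and a fold change of 0.155 (0.0935 to 0.243). These low counts were shared by many genes of the *tuft* library. Of genes with a like WT count, 8.51% of 2831 had as few counts in *tuft* as *Apaf1* or fewer, 17.7% of 2040 for *Casp8*, and 18.1% of 2595 for *Fadd*.

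The 3 other caspases were not called. *Casp9*, the initiator caspase of the mitochondrial route, had 129 and 541 counts, levels of 23.0 and 33.1 nCPM, and a fold change of 0.694 (0.569 to 0.843). There were 14.3 *Casp9* counts for each *Apaf1* count in *tuft* and 0.980 in WT, a ratio of 14.6 (7.36 to 33.0). *Casp6*, an executioner caspase, had 61 and 384 counts and a fold change of 0.463 (0.347 to 0.607). *Casp2*, an initiator caspase of several stress responses, had 545 and 1216 counts and a fold change of 1.31 (1.18 to 1.45), which fell below 1 with library totals in place of TMM scaling.

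All 4 genes of proteins released from mitochondria were called, 3 lower and 1 higher. Of all genes tested, 47.2% were called, 29.8% lower and 17.4% higher. *Diablo* (chr5:123511330-123524164), whose product SMAC neutralizes inhibitors of apoptosis, had 1607 counts in *tuft* and 1636 in WT, levels of 286 and 100.1 nCPM, and a fold change of 2.86 (2.67 to 3.07). *Aifm1* (chrX:48474944-48513563), a mitochondrial flavoprotein that can enter the nucleus in dying cells, had 117 and 1101 counts, levels of 20.9 and 67.4 nCPM, and a fold change of 0.309 (0.254 to 0.375). *Endog*, the gene of the mitochondrial endonuclease G, had 0 counts in *tuft* and 47 in WT. It was at least 5.38-fold lower with the limit of 3 counts in *tuft*, its interval with the counting error of both libraries reached 0.238, and 48.6% of 1243 genes with a like WT count were also at 0. *Cycs*, the gene of somatic cytochrome c, had 1 count in *tuft* and 59 in WT, a fold change of 0.0494 (0.00123 to 0.286). Of 1285 genes with a like WT count, 47.8% had 1 count or none in *tuft*, and 3 pseudogenes are named after *Cycs*, with which reads that are not unique would have been left off the gene.

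*Xiap* (chrX:42059613-42109664), the inhibitor that binds caspases directly and is the target of SMAC, had 27 counts in *tuft* and 465 in WT. Its level was 4.81 nCPM in *tuft* and 28.5 nCPM in WT, a fold change of 0.169 (0.110 to 0.249), and 17.5% of 2746 genes with a like WT count had as few counts or fewer in *tuft*. *Birc6*, a giant ubiquitin ligase of the same family, had 642 and 2544 counts and a fold change of 0.735 (0.673 to 0.802). Other *Birc* genes, outside the 34, went the other way. *Birc2*, *Birc3* and *Birc5* were called higher, with fold changes of 3.61, 3.41 and 3.15, and *Birc7* (0 counts in *tuft*, 11 in WT) was not called. There were 59.5 *Diablo* counts for each *Xiap* count in *tuft* and 3.52 in WT, a ratio of 16.9 (11.4 to 26.1). The inhibitor and its antagonist thus lay on opposite sides of 1.

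Per kilobase of transcript, the order of the 34 genes changed most at *Trp53inp1*. In WT the highest levels were those of *Bax* (158 nCPM per kb), *Trp53* (152) and *Mcl1* (45.8). In *tuft* they were those of *Mcl1* (483 nCPM per kb), *Trp53* (154), *Diablo* (84.6) and *Bax* (76.3). *Trp53inp1* was at rank 32 of 34 in WT with 1.23 nCPM per kb and at rank 10 in *tuft* with 27.9. *Bok* moved from rank 5 to rank 16. Transcript lengths came from an annotation of an earlier mouse build, and median lengths were 3480 bases for the 10 higher and 2854 bases for the 8 lower genes, with a median GC content of 49.0% and 48.0%.

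Other genes of the pathway were taken from 3 lists of known p53 targets, p53 kinases and modifiers, and further apoptosis genes. Of 106 such genes tested, 19 (17.9%) were called higher, 29 (27.4%) lower and 58 not called, shares near the 17.4% and 29.8% over all genes tested. Among 31 other p53 target genes, 9 (29.0%) were called higher and 10 (32.3%) lower. The median log2 value was 0.34, against −0.46 over all genes tested. In this list *Trp53i11* had 6165 counts in *tuft* and 1130 in WT, a fold change of 15.9. *Rps27l*, a ribosomal protein paralog induced by p53, had 4286 and 1420 counts and a fold change of 8.79 (8.28 to 9.34). *Siva1* had 162 and 1262 counts and a fold change of 0.374, and the exonuclease gene *Aen* had 227 and 1572 counts and a fold change of 0.420. The targets outside the 8 thus lay on both sides of 1, and 6 of the 31 had 3 or fewer counts in *tuft*.

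Of 28 p53 kinases and modifiers, 2 (7.14%) were called higher and 9 (32.1%) lower, with a median log2 value of −0.44. The 2 higher genes were ubiquitin ligases, *Rfwd2* (the gene of COP1) with a fold change of 3.51 and *Topors* with a fold change of 2.22. Where each library had 100 counts or more, the lowest fold changes among lower genes were those of the acetyltransferase gene *Ep300* (237 and 2046 counts, 0.337) and the kinase gene *Hipk2* (169 and 1444 counts, 0.341). Of 47 further apoptosis genes, 8 (17.0%) were called higher and 10 (21.3%) lower, with a median log2 value of −0.28. *Bcl2l12* (165 and 103 counts) had a fold change of 4.66 and *Birc2*, a ubiquitin ligase of the inhibitor of apoptosis family, had 301 and 243 counts and a fold change of 3.61. *Bcl2l13*, the 1 lower gene of this list that reached 100 counts in each library, had 418 and 2776 counts and a fold change of 0.438.

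**Figure D5:**
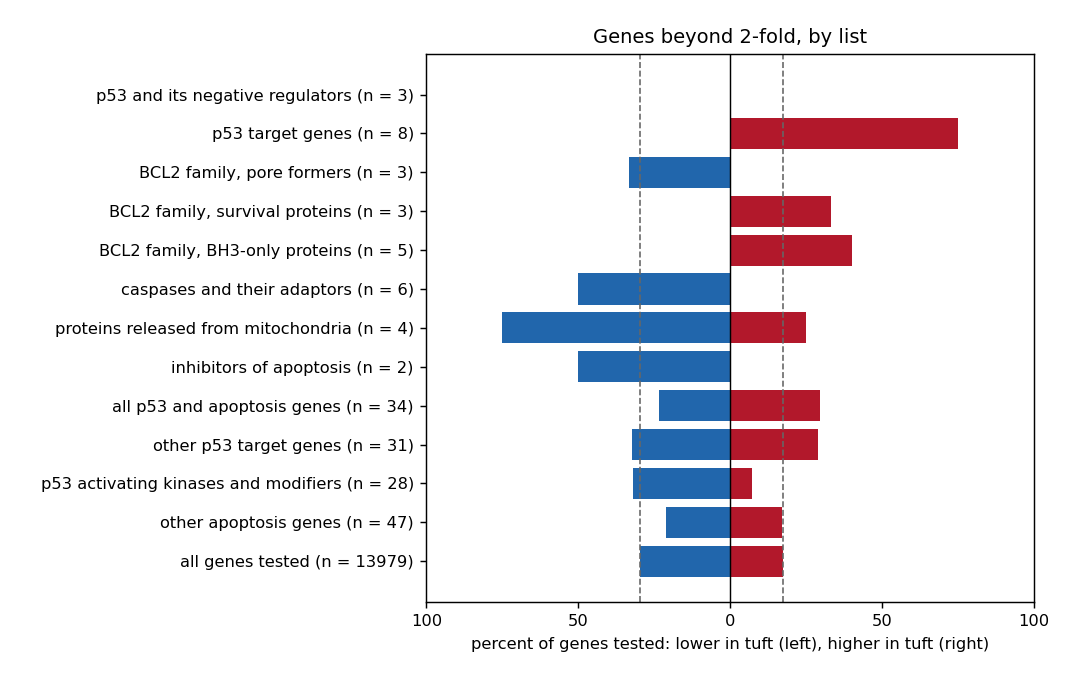
Percent of tested genes called lower (left, blue) and higher (right, red) in *tuft* for each role of the 34 genes, for the 34 together, for the 3 lists of other pathway genes and for all genes tested, whose percentages (29.8 and 17.4) are the dashed lines. The 8 genes listed as p53 target genes had 6 called higher and 0 lower, and the 31 other p53 target genes had 9 called higher and 10 lower.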

How the data were processed

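Rostrum RNA of *tuft* and WT embryos (3 embryos pooled per library) was sequenced by Ion Torrent. The deposited values are raw counts per gene, 1 table per genotype, which the authors made from reads mapped to mm10 (GRCm38). The submitters' processing notes name Bowtie2 2.2.5, TopHat2 2.0.14, Cufflinks 2.1.1, SAMtools 0.1.18 and HTSeq. Strand and overlap settings are not given in the sources used here. Rows that name no gene (reads not unique, unassigned) were left out of library sizes, and reads not uniquely aligned came to 59.2% of the table total in *tuft* and 51.4% in WT, reads on no gene to 12.8% and 10.8%, and ambiguous reads to 0.667% and 0.526%.

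Counts were scaled by TMM factors (edgeR 4.0.16, R 4.3.3), which put the *tuft* factor at 0.761 of the WT factor. Exact Clopper-Pearson 95% intervals and exact conditional odds ratios were computed with SciPy 1.17.1 and Python 3.11.15. Genes with at least 10 counts over both libraries entered the comparison (genes tested), a gene was called where its interval lay beyond 2-fold, and a count of 0 was set to a floor of 3 counts per library (0.535 nCPM in *tuft*, 0.184 nCPM in WT). Reads carry no molecular identifiers, so intervals and floors cover counting error only. The study called genes with NOISeq-sim, which draws its noise from each library's own counts. That rule was re-implemented here as an alternative, beside other scalings, filters and fold limits. With 1 library per genotype, no model of replicate spread could be fitted. The calculation was tested on simulated counts.

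The 34 genes and the other lists were chosen with earlier results of these data known. All 34 are named, by role. Of the other lists, the 2 highest and the 2 lowest called genes that reached 100 counts in each library are named, with *Tet1*. *Birc3*, *Birc5*, *Birc7* and *Trp73* are named besides. Further genes that the rule named are not reported here. Gene positions and promoters came from RefSeq (GRCm38.p6), and transcript lengths from GENCODE M1 (NCBIM37).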

Additional observations from a re-analysis of the deposited data

How the results depend on the processing

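No call of the 34 genes turned direction under any of the 10 alternatives tried. With library totals alone, 8 were called higher and 10 lower, with *Zmat3* and *Tnfrsf10b* lost, *Bax* and *Casp6* added, and *Trp53* and *Casp2* crossing 1. The median log2 fold change was then −0.42 over the 34 genes and −0.85 over all genes, the share of lower among all calls was 75.3% in place of 63.2%, and 23 of the 34 log2 values moved beyond their own counting interval. Size factors by the median of ratios gave 10 higher and 8 lower, and upper quartile factors 9 and 8, without *Zmat3* and with *Trp53* crossing 1. Without a filter on low counts, the median log2 fold change over all genes was −0.043. This value depends on the floor of 3 counts set for a count of 0. With it, genes at 0 in *tuft* and few counts in WT come out above 1 (*Trp73*, 0 and 4 counts, log2 value 1.13). It therefore does not show a smaller shift. The NOISeq-sim settings used the same genes and fold changes and gave no median of their own. The main median of −0.46 also holds values set by this floor, since 2609 of the 13979 genes tested were at 0 in *tuft*. A gene with 0 counts in *tuft* and 10 in WT comes out at −0.195, above that median. The part of the floor in the main median was not tested. With a minimum of 100 counts over both libraries, an alternative chosen after seeing the data, the median over all genes was −0.14, and the median of the 31 genes of the set then tested was 0.38. A 4-fold limit left 4 higher and 5 lower of the 34, with 2 of the 8 target genes higher. Of all genes tested it left 970 (6.94%) higher and 2218 (15.9%) lower. NOISeq-sim on CPM called 7 higher and 5 lower of the 34, with 3 of the 8 target genes higher. Of all genes with a count it called 1513 (8.83%) higher and 1605 (9.36%) lower, 51.5% of its calls being lower. *Cdkn1a*, *Casp8*, *Cycs* and *Endog* were among the calls it did not make. Adding 0.5 to each count left the 6 within-library ratios inside their intervals. No paired analysis was possible because the tables hold 1 library per genotype, and for the same reason no library could be left out. Counts were fewest for *Pmaip1*, *Cycs* and *Endog*, at 18 to 59 in WT and 0 or 1 in *tuft*, and the part of depth in these values was not tested.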
